A study of Homo sapiens with 16 samples.

Results

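The genes described here are the glucose transporters and glycolytic enzymes SLC2A1, SLC2A3, HK1, HK2, PFKP, ALDOA, PGK1, ENO1, PKM and LDHA, taken from the count files by their symbols. They are 10 of the 62714 genes listed, 39680 of which were counted in some library, and all 10 passed the filter on low counts in every comparison. RNA-seq of ribosomal RNA depleted RNA was performed on 4 established lines of human B-cell lymphoma, with 16 libraries in all. In every line a lentiviral vector with Cas9 and guide RNAs was directed at CREBBP, the gene of a histone acetyltransferase, or at the AAVS site, a control locus, and the cells were kept as pools and not as clones. Each pool gave a library from cells held for 4 h in serum-containing medium without IL4 (baseline) and another from cells held for 4 h with 10 ng/ml IL4, the cytokine that signals through STAT6. The 4 groups, called AAVS baseline and AAVS IL4 for the control pools and CREBBP baseline and CREBBP IL4 for the targeted pools, therefore hold 4 libraries each, with the line as the replicate, and all carry Cas9 and guides. SU-DHL4 gave line 1 and DOHH2 gave line 4, whereas OCILY7 and SUDHL10 are named in opposite order by separate entries of the labels and are called line 2 and line 3.

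Glycolysis turns glucose into pyruvate in the cytosol. Facilitative transporters of the SLC2A family, GLUT1 (SLC2A1) and the high-affinity GLUT3 (SLC2A3), carry glucose across the plasma membrane, and the hexokinases HK1 and HK2 trap it as glucose 6-phosphate. PFKP, the platelet form of phosphofructokinase, catalyses the committed step. ALDOA splits the resulting sugar, PGK1 and PKM make ATP, ENO1 forms phosphoenolpyruvate, and LDHA reduces pyruvate to lactate. Many of these genes are known targets of the hypoxia-inducible factor HIF1 and of MYC, and activated and malignant B cells are known for high glucose use.

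On GRCh38, with the gene bounds of GENCODE release 44, SLC2A1 lies at chr1:42925353-42958893 and ENO1 at chr1:8861000-8879190, both on the minus strand, as are SLC2A3 at chr12:7919230-8019007 and PKM at chr15:72199029-72231819. On the plus strand lie HK1 at chr10:69269984-69401884, PFKP at chr10:3066333-3137718, HK2 at chr2:74834127-74893359, ALDOA at chr16:30064164-30070457, LDHA at chr11:18394560-18408425 and PGK1 at chrX:77910739-78129295. The members are thus spread over the genome.

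RefSeq promoters on GRCh38.p14 were found for 9 members with 22 start sites, not for SLC2A3. The 250 bases before each start were searched on both strands for ACGTG, the core of the hypoxia response element that HIF1 binds and for CACGTG, the E-box that MYC binds, which holds ACGTG on both strands. ACGTG was found before 8 of the 22 starts, from 5 members, against 18.5% of all 35116 promoters. Starts of the same member can share bases and are not separate observations. Before the first start, ACGTG was found for 4 of the 9 members. CACGTG was found before 3 of the starts, against 6.34% of all promoters. A motif of STAT6, searched in the same way, was found before 1 start, of ALDOA, against 5.38%. The promoters of LDHA, PGK1 and ENO1 are shown, since these 3 enzymes were higher with IL4 in all CREBBP pools than in the AAVS pools, and they held 5, 2 and 0 matches to ACGTG in turn. Capitals mark ACGTG or its reverse complement, and each run reads 5′ to 3′ on the strand of the gene up to the base before the start site. Those of PGK1 (chrX:78103998-78104247, plus strand), ENO1 (chr1:8878687-8878936, minus strand) and LDHA (chr11:18394313-18394562, plus strand) read as follows.
PGK1: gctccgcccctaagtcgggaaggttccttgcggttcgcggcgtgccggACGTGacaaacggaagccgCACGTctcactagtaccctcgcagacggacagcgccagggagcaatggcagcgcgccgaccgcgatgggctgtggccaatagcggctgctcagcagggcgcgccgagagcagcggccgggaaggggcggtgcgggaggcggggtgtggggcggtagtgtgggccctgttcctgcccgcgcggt
ENO1: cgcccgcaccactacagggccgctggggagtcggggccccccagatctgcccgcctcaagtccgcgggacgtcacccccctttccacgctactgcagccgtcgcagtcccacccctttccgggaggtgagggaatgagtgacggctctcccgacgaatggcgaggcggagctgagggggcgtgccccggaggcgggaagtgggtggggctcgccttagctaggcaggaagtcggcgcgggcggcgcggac
LDHA: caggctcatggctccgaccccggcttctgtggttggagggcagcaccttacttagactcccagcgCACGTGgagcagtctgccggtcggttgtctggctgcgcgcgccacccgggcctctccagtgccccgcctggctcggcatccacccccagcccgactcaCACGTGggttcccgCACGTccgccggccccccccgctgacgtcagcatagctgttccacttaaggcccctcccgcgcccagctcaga

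Total counts ranged from 19649735 in the AAVS IL4 library of line 3 to 61981976, and the 10 members together accounted for 0.445% to 0.911% of a library. Levels are given as CPM, library-size normalised counts with TMM scaling over the 16 libraries. The AAVS IL4 libraries stood apart from the other 12 in genes that are not members. IGHM, the heavy chain of IgM, was at 863, 642, 1514 and 119 CPM in the AAVS IL4 libraries of lines 1 to 4, and no other library exceeded 0.0823 CPM. IGHM, IGHD, CD44 and VIM, a list known from earlier results to set these libraries apart, summed to between 599.5 and 3072 CPM there and to between 0.3 and 8.095 CPM in the other 12. Of 13 T-cell markers, 8 were higher in every AAVS IL4 library than in any other library, with sums of 108 to 269 CPM against 82.1 to 168 CPM, and CD2 was at 0 in the other 12. The same held for 2 of 10 myeloid markers (7.03 to 22.9 against 1.54 to 11.6 CPM), 1 of 5 stromal markers (0.772 to 15.6 against 0.1715 to 31.9 CPM) and 3 of 5 red-cell markers (2.99 to 17.7 against 0 to 1.2 CPM). For IL4 in the AAVS pools, 12 of the 13 T-cell markers were higher in 4 of 4 lines. EdgeR called 9 of the 13 as higher, against 2.39% of all genes, and their median log2 fold change was 5.26 over the 13. LCK, lower there in 4 of 4 lines, was at 83.7 to 155 CPM in AAVS baseline and made up most of the T-cell sums outside AAVS IL4. The 8 B-cell markers summed to between 2745 and 4725 CPM in AAVS IL4, lowest in line 3, and to between 3335 and 6224 CPM in the other 12. Results that rest on the AAVS IL4 group are therefore set beside the comparisons without it. In bulk RNA fewer cells of a type and less RNA per cell cannot be told apart. Since each line has a single library per condition, the tests between groups weigh a difference against its variation from line to line. The labels do not state whether the pools were grown separately. The tests also take the 4 lines as independent of each other. Lines 1, 3 and 4 were close to each other over all genes, as given below, and this independence was not tested.

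The targeted gene, CREBBP, was counted in every library. For lines 1 to 4 it was at 293, 179, 402.5 and 211 CPM in AAVS baseline and at 304, 178, 238 and 248 CPM in CREBBP baseline, and at 286, 172, 278 and 327 CPM in AAVS IL4 and 228, 96.5, 263.5 and 205 CPM in CREBBP IL4. The groups overlapped, with log2 fold changes of -0.11 (SE 0.21; edgeR adjusted p = 0.851) at baseline, which turned to 0.082 without line 3, and -0.51 (SE 0.23; edgeR adjusted p = 0.218) with IL4, where it was lower in 4 of 4 lines. Neither difference passed the test, and the target of each pool is taken from its label. The study reports loss of the CREBBP protein in the targeted pools by immunoblotting, and RNA counts do not measure protein.

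Divided by the union exon length in kb, the members formed a steep order at AAVS baseline. ALDOA was at 325 ± 117 CPM per kb (SD, n = 4 lines), ENO1 at 261 ± 47.0, LDHA at 248 ± 107, PKM at 191 ± 73.5, PGK1 at 135 ± 58.1 and HK2 at 84.4 ± 64.1 CPM per kb. PFKP, HK1 and SLC2A1 followed at 24.0 ± 7.92, 23.7 ± 14.0 and 22.4 ± 12.3 CPM per kb, and SLC2A3 was lowest at 1.27 ± 0.843 CPM per kb. Within lines, LDHA was above PKM, PKM above PGK1, PGK1 above HK2 and SLC2A1 above SLC2A3 in 4 of 4 lines, whereas ALDOA was above ENO1 in 3, ENO1 above LDHA in 2, HK2 above PFKP in 3, PFKP above HK1 in 1 and HK1 above SLC2A1 in 2. ALDOA, ENO1 and LDHA, and again PFKP, HK1 and SLC2A1, did not differ beyond their spread. On average the enzymes from ALDOA to PGK1 in this order were thus above both transporters. Part of the reads of ALDOA and PGK1 could be shared with overlapping genes on the same strand, ENSG00000285043, whose count was 7.87% of that of ALDOA, and ATP7A, whose count was 4.73% of that of PGK1.

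**Figure D1:**
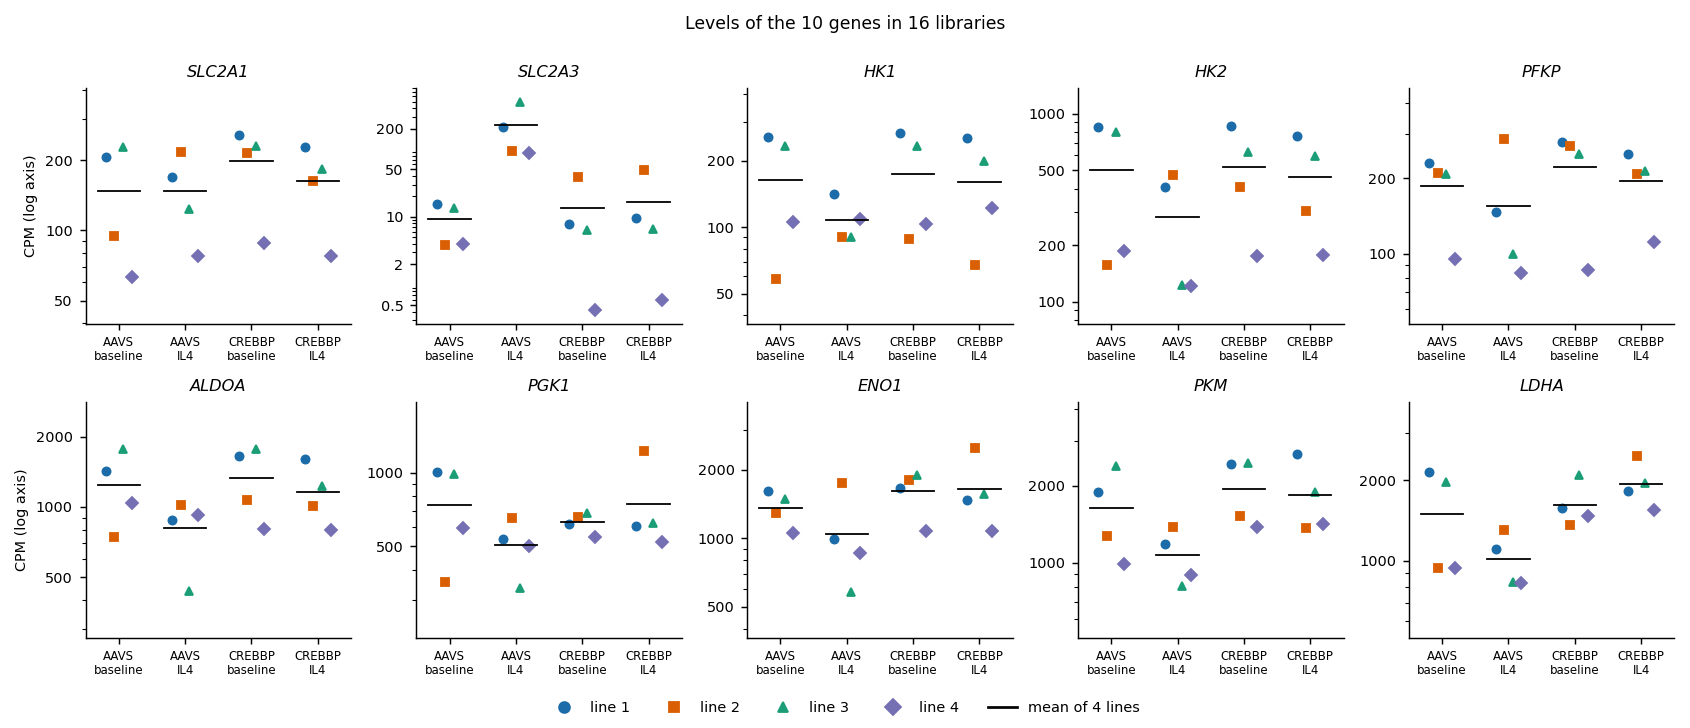
Levels of the 10 members in every library, in CPM on a log axis, with 1 panel per gene, the 4 groups on the x axis and 1 symbol per line. SLC2A3 is the member whose AAVS IL4 libraries (86.5 to 500.3 CPM) all lie above its other libraries (0.416 to 48.4 CPM), and LDHA in CREBBP IL4 (1546 to 2454 CPM) lies above LDHA in AAVS IL4 (825 to 1301 CPM).

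The comparison of IL4 with baseline in the AAVS pools asked how the control cells respond to the cytokine. Among the members only SLC2A3 rose, 23.9-fold, and the other 9 did not pass the test. SLC2A3, the high-affinity glucose transporter, was at 15.4, 3.89, 13.5 and 4.01 CPM in AAVS baseline for lines 1 to 4 and at 213.5, 94.0, 500.3 and 86.5 CPM in AAVS IL4. The groups did not overlap, and the lowest IL4 library was above the highest baseline library. The log2 fold change was 4.58 (SE 0.29; edgeR adjusted p = 0.0017), and the rise was found in 4 of 4 lines, with 3.79, 4.58, 5.21 and 4.41 on the log2 scale. It kept its direction and its call under all 10 alternatives, with log2 fold changes from 4.27 to 4.75. This is 1 of 10 members called, against 2.40% of the 20310 genes tested, 2.39% in the upward direction, and 1 of 10 members with higher, non-overlapping groups, against 5.76% of the genes.

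The rise of SLC2A3 coincided with that of the genes that set the AAVS IL4 libraries apart. Among these libraries SLC2A3 was ordered line 3, line 1, line 2 and line 4 from high to low, which is also the order of IGHM, while VIM was at 280 CPM in line 1, 73.8 in line 2, 615 in line 3 and 338 in line 4. The T-cell, myeloid and red-cell sums named above moved in the same libraries. The part of these transcripts in the rise of SLC2A3 was not tested. In the CREBBP pools, whose libraries had at most 0.0823 CPM of IGHM, SLC2A3 was at 7.83, 39.2, 6.42 and 0.416 CPM at baseline and at 9.64, 48.4, 6.7 and 0.591 CPM with IL4. Each line was slightly higher with IL4, but the groups overlapped, and the log2 fold change was 0.24 (SE 0.17; edgeR adjusted p = 0.924).

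Reads of SLC2A3 could in part be assigned to near-identical copies. The paralog SLC2A14 had no count outside AAVS IL4 and reached at most 0.38 CPM there. The pseudogenes SLC2A3P1 and SLC2A3P4 took reads in every group, and the sum of SLC2A3 and both pseudogenes was 8.63 to 25.4 CPM in AAVS baseline, 96.6 to 506 in AAVS IL4, 2.88 to 45.1 in CREBBP baseline and 1.74 to 53.1 CPM in CREBBP IL4. The summed levels of AAVS IL4 thus also lay above all others.

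**Figure D2:**
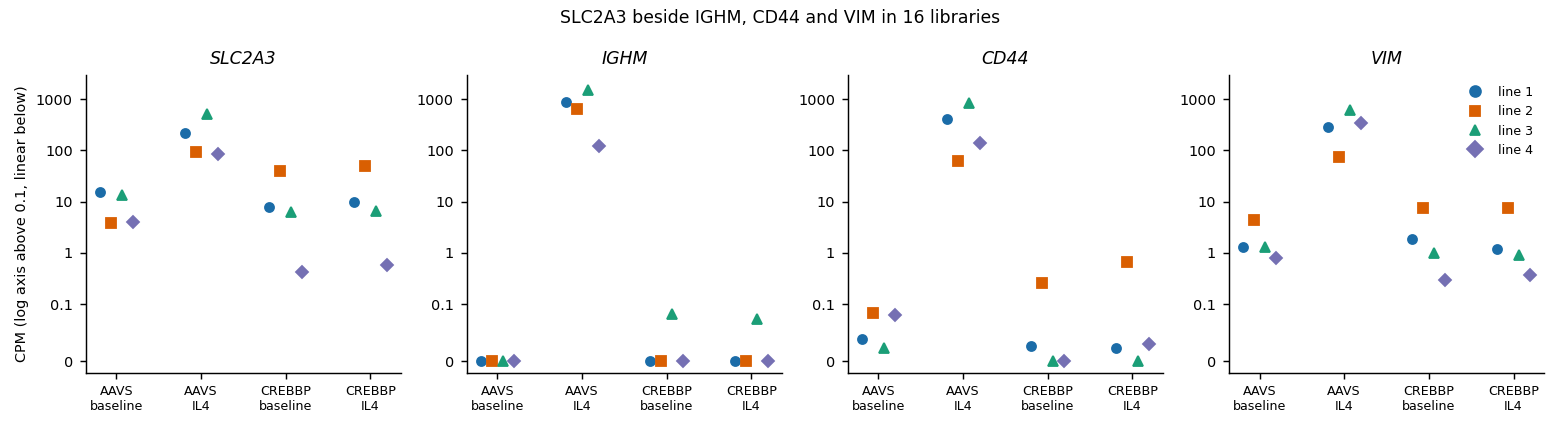
SLC2A3 beside genes that set the AAVS IL4 libraries apart, in CPM on a log axis for the 16 libraries grouped by condition. SLC2A3 (86.5 to 500.3 CPM), IGHM (119 to 1514 CPM) and VIM (73.8 to 615 CPM) are all high in the 4 AAVS IL4 libraries, and IGHM is at or near 0 elsewhere while SLC2A3 remains measurable.

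SLC2A1, the widely expressed transporter, was at 208, 94.96, 227 and 63.2 CPM in AAVS baseline and at 170.5, 218, 124 and 77.6 CPM in AAVS IL4. It was higher in lines 2 and 4 and lower in lines 1 and 3, and the groups overlapped (log2 fold change 0.15, SE 0.33; edgeR adjusted p = 0.828). Without line 2 its sign turned, to -0.21. SLC2A1 thus had no common direction in the control cells.

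HK2 had the widest spread of response between lines among the members. HK2, the inducible form, was at 855, 156, 800 and 187 CPM in AAVS baseline and at 406, 472, 123 and 121 CPM in AAVS IL4, and HK1 was at 255, 58.2, 233.5 and 106 CPM and then at 141, 90.7, 90.5 and 109 CPM. HK2 was lower in lines 1, 3 and 4 and was 1.59 higher on the log2 scale in line 2, so that the groups overlapped (log2 fold change -0.66, SE 0.66; edgeR adjusted p = 0.617). HK1 was lower in lines 1 and 3 and higher in lines 2 and 4 (log2 fold change -0.31, SE 0.33; edgeR adjusted p = 0.639).

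The enzymes from PFKP to LDHA behaved alike within each line. LDHA was at 2137, 941, 1962 and 941 CPM in AAVS baseline and at 1110, 1301, 835 and 825 CPM in AAVS IL4, and ENO1 was at 1617, 1288, 1481 and 1052 CPM and then at 995, 1757, 583 and 863 CPM. PGK1 was at 1004, 357, 989 and 594 CPM and then at 536, 653, 336.5 and 500.5 CPM. For all 3 the values were lower with IL4 in lines 1, 3 and 4 and higher in line 2, and the groups overlapped. The log2 fold changes of PFKP, ALDOA, PGK1, ENO1, PKM and LDHA lay between -0.52 and -0.29, with edgeR adjusted p-values from 0.464 to 0.617 and 1 of 4 lines higher for each.

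Line 2 thus went against the other lines. Of the 9 members without SLC2A3, 9 were higher with IL4 in line 2 (median log2 difference 0.47), 9 were lower in line 1 (median -0.71), 9 were lower in line 3 (median -1.37) and 7 were lower in line 4 (median -0.19), while the medians of all genes lay between -0.09 and 0.01. In the same comparison the 8 B-cell markers were all lower in line 1 (median -0.28) and line 3 (median -0.83), with 5 of 8 lower in line 2 (median -0.29) and 6 of 8 higher in line 4 (median 0.07), and their part in the members' values was not tested. HK2, PFKP, ALDOA, PGK1, ENO1, PKM and LDHA were higher in line 2 and lower in lines 1, 3 and 4, and 19.0% of all genes had line 2 opposite to the other lines, in either direction. The lowest library of line 2 was AAVS baseline for 9 of the 10 members, against 30.3% of all genes, and the lowest library of lines 1 and 3 was AAVS IL4 for 9 of the 10, against 33.5% and 41.2% of all genes. Known HIF1 targets and regulators were higher in line 2 as well, with 14 of 15 listed genes higher with IL4 (median log2 difference 1.86), against 4 of 15 in lines 1 and 3 and 7 of 15 in line 4. They were also higher in CREBBP baseline than in AAVS baseline of line 2, for 13 of 15 genes (median 2.16), and the part of the AAVS baseline library of line 2 in these differences was not tested. Without line 2 the median log2 fold change of the 10 members was -0.70 in place of -0.40 (all genes 0.01), and again 1 member, SLC2A3, was called.

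**Figure D3:**
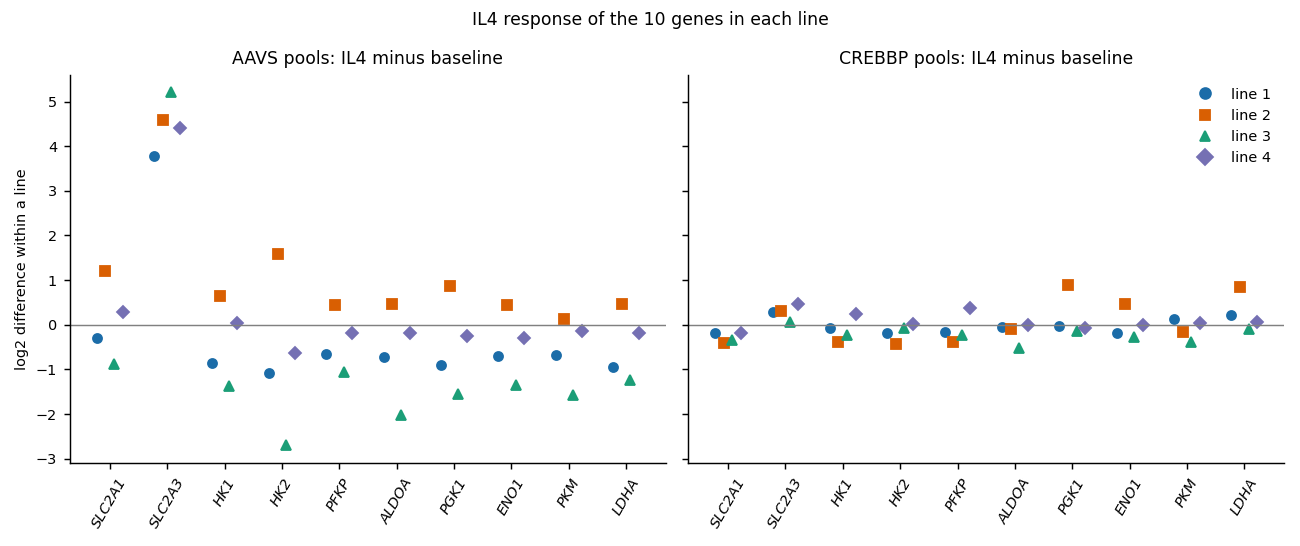
Log2 difference between the IL4 and the baseline library of the AAVS pool of each line, 1 point per line and member, with a line at 0. SLC2A3 lies between 3.79 and 5.21 in all lines, and for HK2, PFKP, ALDOA, PGK1, ENO1, PKM and LDHA line 2 lies above 0 and lines 1, 3 and 4 lie below 0.

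In the CREBBP pools IL4 moved no member past the test. By edgeR's quasi-likelihood test 0 of the 10 members were called, 0 had an unadjusted p under 0.05, and DESeq2 called 0, while 0% of the 18282 genes tested were called by edgeR. The median log2 fold change of the members was -0.13, and that of all genes was -0.04. SLC2A1 was at 256, 216, 231.5 and 88.7 CPM at baseline and at 227, 164, 183 and 77.8 CPM with IL4. It was lower with IL4 in 4 of 4 lines, within overlapping groups (log2 fold change -0.31, SE 0.15; edgeR adjusted p = 0.924). ALDOA was also lower in 4 of 4 lines, at 1653, 1074, 1771 and 804.5 CPM and then at 1599, 1007, 1231 and 796.5 CPM (log2 fold change -0.20, SE 0.19; edgeR adjusted p = 0.924). PGK1 was at 616, 658, 683 and 547 CPM at baseline and at 607, 1223, 623 and 521 CPM with IL4, so that line 2 was far above the other lines with IL4, and its log2 fold change of 0.13 (SE 0.22; edgeR adjusted p = 0.944) turned to -0.091 without that line. LDHA had the largest upward value among the enzymes, 0.23 (SE 0.22; edgeR adjusted p = 0.924).

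The IL4 responses of the CREBBP and AAVS pools were compared in 1 model of all libraries. SLC2A3 responded less in the CREBBP pools, an 18.8-fold difference (log2 difference -4.23, SE 0.32; edgeR adjusted p = 0.000173), with the smaller response in 4 of 4 lines. Without the line as a block this call was lost at a like size (log2 difference -4.33, SE 1.63; edgeR adjusted p = 0.689). It was 1 of 10 members called, against 0.638% of the 21932 genes tested, 0.620% in this direction. The other 9 members did not pass the test, with edgeR adjusted p-values from 0.481 to 0.807. LDHA had the largest value of these, 0.74 (SE 0.42; edgeR adjusted p = 0.481), and LDHA, ENO1 and PGK1 each had the higher response in the CREBBP pool in 4 of 4 lines. The median of the 10 members was 0.45, against 0.05 over all genes. By line, the median was 0.72, 1.13 and 0.19 in lines 1, 3 and 4 and -0.69 in line 2, where 7 of the 10 were negative. This difference contains the AAVS IL4 libraries, and the 2 responses behind it are those given above.

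**Figure D4:**
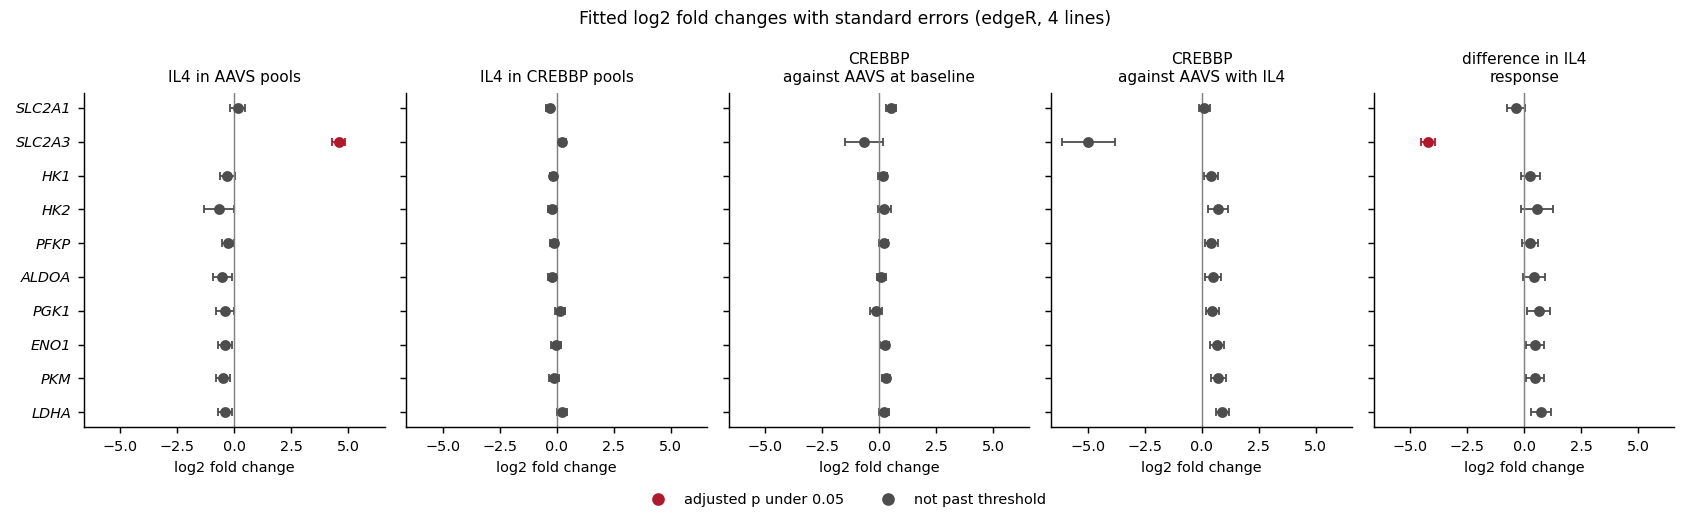
Fitted log2 fold changes of the 10 members with their standard errors (bars) in the 4 comparisons of groups and in the difference between the IL4 responses, with a line at 0. SLC2A3 lies at 4.58 for IL4 in the AAVS pools, at 0.24 for IL4 in the CREBBP pools, at -0.66 for CREBBP against AAVS at baseline, at -4.97 with IL4 and at -4.23 for the difference, whereas the other members lie between -0.66 and 0.91.

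The CREBBP and AAVS pools were compared, at baseline and again after IL4, to ask whether targeting CREBBP changed expression without or with the cytokine. At baseline no member passed the test. EdgeR's quasi-likelihood test called 0 of the 10, with 1 at an unadjusted p under 0.05, DESeq2 called 0, and edgeR called 0% of the 18936 genes tested. The member under that unadjusted p was SLC2A1, higher in 4 of 4 CREBBP pools at the levels given above (log2 fold change 0.50, SE 0.22; edgeR adjusted p = 0.382). PKM was at 1891, 1273, 2391 and 985 CPM in AAVS baseline and at 2430, 1528, 2461 and 1381 CPM in CREBBP baseline. PKM and ENO1 were likewise higher in 4 of 4 lines within overlapping groups, with log2 fold changes of 0.29 (SE 0.19; edgeR adjusted p = 0.541) and 0.24 (SE 0.19; edgeR adjusted p = 0.631). The median of the members was 0.20, and that of all genes was -0.03. SLC2A3 had a log2 fold change of -0.66 (SE 0.83; edgeR adjusted p = 0.769), higher in line 2 and lower in lines 1, 3 and 4, and without the block it turned to 0.58.

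With IL4 the members pointed in opposite directions in the CREBBP pools. SLC2A3 had a negative and the other 9 a positive fitted fold change, and none passed the main test: edgeR's quasi-likelihood test called 0 of the 10, against 4.39% of the 19581 genes tested, 2 members had an unadjusted p under 0.05, and DESeq2 called these 2, SLC2A3 and LDHA. SLC2A3 was 31.4-fold lower, and the groups did not overlap, since the highest CREBBP IL4 library (48.4 CPM) lay below the lowest AAVS IL4 library (86.5 CPM). Its log2 fold change was -4.97 (SE 1.15; edgeR adjusted p = 0.0567), with 4 of 4 lines lower. It was past the threshold without line 2 (-5.93; edgeR adjusted p = 0.001635), with no filter, with at least 10 counts in every library, with DESeq2 and in the fit of all 16 libraries. The remaining alternatives, among them those without line 1, line 3 or line 4, left it uncalled. Over the 10 alternatives the log2 fold change ranged from -5.93 to -3.73, and the edgeR adjusted p reached 0.212. It was 1 of 10 members with lower, non-overlapping groups, against 8.55% of the genes.

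LDHA, which makes lactate from pyruvate, was at 1110, 1301, 835 and 825 CPM in AAVS IL4 and at 1824, 2454, 1947 and 1546 CPM in CREBBP IL4. Each CREBBP library lay above each AAVS library. The log2 fold change was 0.91 (SE 0.27; edgeR adjusted p = 0.0992), a 1.87-fold difference, and the adjusted p ranged from 0.000237 to 0.275 over the alternatives. LDHA was 1 of 10 members with higher, non-overlapping groups, against 4.75% of the genes, and 3 of 10 members, LDHA, ENO1 and PGK1, were higher in 4 of 4 lines, against 16.5%. ENO1 was at 1477, 2491, 1570 and 1072 CPM in CREBBP IL4 and PGK1 at 607, 1223, 623 and 521 CPM. Both groups overlapped those of AAVS IL4, with log2 fold changes of 0.67 (SE 0.31; edgeR adjusted p = 0.219) and 0.48 (SE 0.29; edgeR adjusted p = 0.328).

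Of the remaining members, PKM was at 1181, 1385, 809.5 and 894 CPM in AAVS IL4 and at 2673, 1361, 1897 and 1423 CPM in CREBBP IL4. It was higher in lines 1, 3 and 4 and lower by a small amount in line 2 (log2 fold change 0.73, SE 0.32; edgeR adjusted p = 0.2). HK2 was also higher in lines 1, 3 and 4 and lower in line 2, at 760, 305.5, 594 and 178 CPM in CREBBP IL4 against 472 CPM in AAVS IL4 of line 2 (log2 fold change 0.73, SE 0.45; edgeR adjusted p = 0.333). HK1, PFKP, ALDOA and SLC2A1 had log2 fold changes from 0.11 to 0.50, with edgeR adjusted p-values from 0.385 to 0.798. The median of the 10 members was 0.49, against -0.05 over all genes. Of the 9 members without SLC2A3, 9 were higher in lines 1 and 3 (medians 0.77 and 1.22) and 8 in line 4 (median 0.31), but 6 were lower in line 2 (median -0.03). Since this comparison and that of IL4 in the AAVS pools share the 4 AAVS IL4 libraries, the values of LDHA, -0.40 there and 0.91 here, are not independent, and the values without these libraries were 0.21 at baseline and 0.23 for IL4 in the CREBBP pools.

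The members were then compared among the lines. With group as a covariate, edgeR's quasi-likelihood test called 5 of the 10 members among lines, against 40.0% of the 21932 genes tested, a share near this background. These were SLC2A1, with 1.49 on the log2 scale between the highest and the lowest line (adjusted p = 0.00212), HK1 with 1.53 (adjusted p = 0.0022), PFKP with 1.40 (adjusted p = 0.00301), HK2 with 2.09 (adjusted p = 0.0114) and SLC2A3 with 3.84 (adjusted p = 0.044), all from edgeR. PFKP was at 230, 211, 209 and 95.1 CPM in AAVS baseline and at 279, 270, 250.5 and 85.7 CPM in CREBBP baseline. In all 4 groups line 4 had the lowest PFKP and the lowest SLC2A1. PKM, ENO1, PGK1, LDHA and ALDOA were not called (range of 0.42 to 0.86 on the log2 scale; edgeR adjusted p = 0.101 to 0.718). Without the AAVS IL4 libraries 7 of the 10 were called, against 43.2% of the genes, with PKM (edgeR adjusted p = 0.0158) and ALDOA (edgeR adjusted p = 0.0235) added. Lines 1, 3 and 4 were close to each other over all genes, since between 1 and 17 genes were at 10 CPM or more in one and under 0.5 CPM in the other in the groups outside AAVS IL4, against 149 to 235 genes with line 2.

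The share of each isozyme within its family was taken from levels divided by length. SLC2A1 made up 94.9 ± 1.14% (SD, n = 4) of SLC2A1 and SLC2A3 in AAVS baseline, 95.04 ± 6.26% in CREBBP baseline and 92.8 ± 9.44% in CREBBP IL4. In AAVS IL4 it was 46.7, 71.8, 21.4 and 49.6% for lines 1 to 4, so that SLC2A3 was the more abundant transporter per length in 3 of these 4 libraries and in no other. The mean difference between IL4 and baseline was -47.5 ± 20.1 percentage points (SD, n = 4), negative in 4 of 4 lines, with an exact two-sided sign-flip p of 0.13, the smallest that 4 lines allow (0.571 adjusted over the 32 share tests). HK2 was the main hexokinase, with HK1 at 24.4% on average at baseline and 29.9% with IL4 in the AAVS pools, and at 23.7% and 24.5% in the CREBBP pools.

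PFKP took 41.4 to 44.8% of the phosphofructokinases on average, and ENO1, PKM and PGK1 were the dominant form of their enzyme, at 94.6 to 96.4% for ENO1, 99.96% or more for PKM and 100% for PGK1. LDHA made up 52.7 ± 6.19% (SD, n = 4) of LDHA and LDHB in AAVS baseline, 55.1 ± 5.22% in AAVS IL4, 46.3 ± 6.77% in CREBBP baseline and 45.7 ± 3.28% in CREBBP IL4. The level of this share depends on the division by union exon length, 6026 bases for LDHA and 2983 for LDHB. In CPM, not divided by length, LDHA was above LDHB on average. The means were 1495 and 631 CPM in AAVS baseline and 1943 and 1142 CPM in CREBBP IL4. With IL4 the share of LDHA was lower in the CREBBP pool in 4 of 4 lines, with a mean difference of -9.43 ± 5.96 percentage points (SD, n = 4; exact sign-flip p = 0.13). That of ALDOA within its family was higher in 4 of 4 lines, by 7.32 ± 6.28 points (SD, n = 4; exact sign-flip p = 0.13). No share can pass a threshold of 0.05 with 4 lines.

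**Figure D5:**
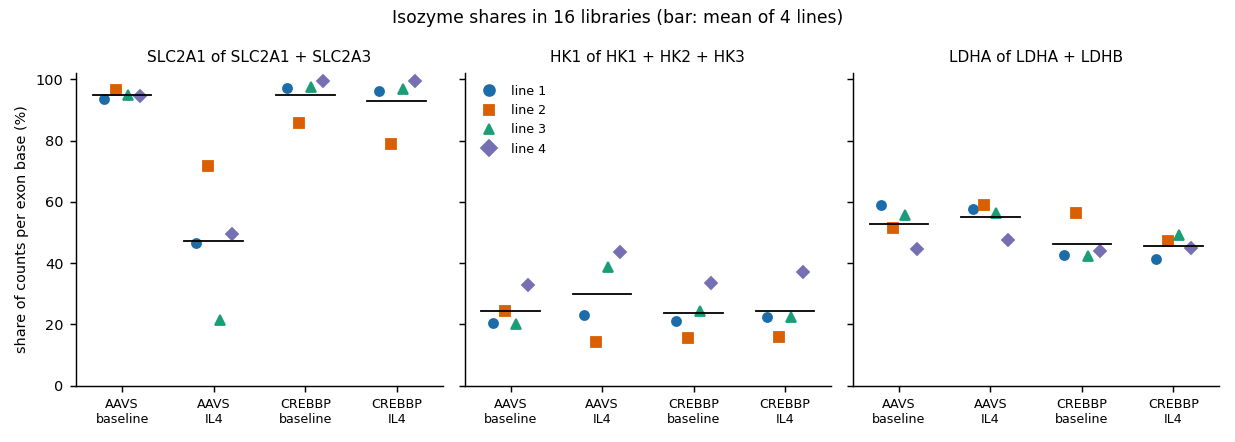
Share in percent, from levels per length, of SLC2A1, HK1 and LDHA within their isozyme families in the 16 libraries, grouped by condition. The share of SLC2A1 lies between 21.4 and 71.8% in AAVS IL4 and at 78.75% or more in the 12 other libraries, and the share of LDHA lies between 41.5 and 58.9% throughout.

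Of the other genes of the pathway lists, 2 passed the test in a comparison of groups. They were LDHB, a glycolytic enzyme, and NDRG1, one of the listed HIF1 targets and regulators. LDHB, the lactate dehydrogenase subunit that favours the step back to pyruvate, was at 402, 449, 320 and 452 CPM in AAVS IL4 and at 1273, 1366, 995 and 934 CPM in CREBBP IL4. The groups did not overlap, as for 4.75% of the genes in this direction. The log2 fold change was 1.46 (SE 0.27; edgeR adjusted p = 0.0346), higher in 4 of 4 lines. Without line 1, line 3 or line 4 the log2 fold change was 1.42, 1.42 and 1.54, but the call was lost (edgeR adjusted p = 0.167, 0.127 and 0.0934). At baseline LDHB was at 737.5, 437.5, 770.0 and 579 CPM in the AAVS pools and 1047, 521, 1414 and 924 CPM in the CREBBP pools, also higher in 4 of 4 lines, and did not pass the test (log2 fold change 0.58, SE 0.19; edgeR adjusted p = 0.296).

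NDRG1, a stress-response gene known as a HIF1 target, was at 4.88, 0.0855, 5.38 and 2.67 CPM in AAVS baseline and at 49.5, 4.84, 121.5 and 11.96 CPM in AAVS IL4. It rose in 4 of 4 lines, by 3.83 on the log2 scale (SE 0.57; edgeR adjusted p = 0.0266), within slightly overlapping groups. In the CREBBP pools it did not exceed 2.84 CPM, and it was lower there with IL4 (log2 fold change -4.54, SE 0.63; edgeR adjusted p = 0.0173). The difference between the responses was -3.86 (SE 0.62; edgeR adjusted p = 0.0231). In each of these comparisons NDRG1 was 1 of 15 tested HIF1 targets and regulators called. The shares of all genes called were 2.40%, 4.39% and 0.638% in turn. Without line 1 or line 3 none of these 3 calls held, and without the block the IL4 response in the AAVS pools had an adjusted p of 0.193. The part of the transcripts that set the AAVS IL4 libraries apart was not tested here either.

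No other gene of the pathway lists was called in any comparison of groups, whereas genes of the marker lists were. Of 13 other glycolytic enzymes tested with IL4 in CREBBP against AAVS pools, 1 was called (LDHB), against 4.39% of all genes tested. Positive values were found for 10, and 7 were higher in 4 of 4 lines, against 16.5% of the genes. The 13 had a median log2 fold change of 0.78, against -0.05 over all genes. In that comparison 0 of 7 genes of the pentose phosphate pathway, which draws glucose 6-phosphate off glycolysis to make NADPH, were called by edgeR, with 3 at an unadjusted p under 0.05, and all 7 had positive values (median 0.75). Without the AAVS IL4 libraries, all 7 were also positive at baseline (median 0.47, 0 called by edgeR, 3 at an unadjusted p under 0.05), and their median for IL4 in the CREBBP pools was -0.02. For IL4 in the AAVS pools 0 of 13 other glycolytic enzymes were called by edgeR, with 2 at an unadjusted p under 0.05 and 10 negative values (median -0.53). HIF1A, the inducible subunit of HIF1, was at 173, 130, 156 and 151 CPM in AAVS baseline and 242, 224, 342 and 259 CPM in AAVS IL4. Its groups did not overlap, as for 5.76% of the genes in this direction (log2 fold change 0.87, SE 0.18; edgeR adjusted p = 0.0755). SLC2A5, the fructose transporter, was at 400.3, 25.6, 514 and 115 CPM in AAVS baseline and 215, 10.6, 53.3 and 98.3 CPM in AAVS IL4, lower in 4 of 4 lines (log2 fold change -1.30, SE 0.49; edgeR adjusted p = 0.269).

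After subtraction of the mean of each line, the 9 members without SLC2A3 varied together over the 16 libraries. Their 36 pairs had a median Pearson's r of 0.81 (0.45 to 0.96), while SLC2A3 had r from -0.78 to -0.17 with the 9, median -0.52. These values are descriptions, since the libraries share lines and differ in depth. They include the AAVS IL4 libraries, the lowest of lines 1 and 3 for 9 of the 10 members. No such value over all genes was computed. The genes outside the lists closest to the mean of the 10 members were ATF5 (r = 0.953), TUBA1A (0.935), MYLIP (0.916), INHBE (0.91) and RALGDS (0.909). This mean includes SLC2A3 and is not the profile of the enzymes. The members themselves had r with it of 0.148 for SLC2A3, 0.437 for PKM and up to 0.817 for SLC2A1. Closeness to the 9 members without SLC2A3 was not computed. ATF5, a transcription factor of the integrated stress response, was at 83.6 CPM in AAVS baseline of line 2 against 529 CPM in AAVS IL4 and 401 CPM in CREBBP baseline of that line, and at 248 CPM in AAVS baseline of line 3 against 30.6 CPM in AAVS IL4. It thus had the low library of line 2 and that of line 3 in common with the enzymes. In line 4, however, ATF5 was highest in AAVS IL4, at 57.9 CPM against 20.4 to 27.9 CPM in its other libraries. AAVS IL4 was the lowest library of that line for 6 of the 10 members. The genes closest to SLC2A3 alone, picked after the values were seen, were TNFAIP3 (r = 0.99), BHLHE40 (0.982), FOSL2 (0.964), LITAF (0.962) and AHNAK (0.961), beside 0.96 for NDRG1 and 0.842 for IGHM. TNFAIP3, an inhibitor of NF-kB signalling, was at 166, 106, 364 and 108 CPM in AAVS IL4 and at 72.5 and 61.4 CPM in the CREBBP pools of line 2, the line that also had the highest SLC2A3 in these pools, and it did not exceed 20.8 CPM in the remaining libraries.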

How the data were processed

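Libraries were prepared from 16 RNA samples of 4 lymphoma lines. Per the labels and methods, the authors trimmed reads with Cutadapt 2.3, checked them with FastQC 0.11.8 and MultiQC 1.7, mapped them to GRCh38 with STAR 2.7.8a and counted genes with RSEM 1.3.3. The annotation release and strand setting are not given in the sources used here. The deposited values are estimated counts per gene, written by the authors as whole numbers without normalization. The study used PGK1, a member, as its reference in quantitative PCR, and named DESeq2 for its own tests.

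Everything after the counts was computed with edgeR 4.0.16 in R 4.3.3, and with pandas 2.3.3, numpy 2.4.6 and matplotlib 3.10.9 in Python 3.11.15; DESeq2 1.42.0 served as an alternative. Genes were filtered with filterByExpr, scaled by TMM and tested across all genes by quasi-likelihood in edgeR, blocking on the line. Benjamini-Hochberg adjusted p-values under 0.05 were called. The difference in IL4 response had a term for each pool. Fold changes in single lines and correlations used log2 CPM with a prior count of 2. Shares were compared by exact sign-flip tests over lines. The tests were also run on simulated counts with the same dispersion for every gene. In the comparisons of groups these counts had no differences between lines, unlike the data. The simulation therefore cannot show how the tests perform on the data themselves.

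The members, the pathway and marker lists and the rule for named genes (members, called genes of the lists, second isozymes, near-identical copies, CREBBP, the genes that set AAVS IL4 apart and the 5 genes most like the members) were chosen with earlier results of these data known. Libraries are paired because the same number is the same cell line. Deviations from group means of libraries of a line correlated with medians of 0.409, 0.685, 0.227 and 0.596 for lines 1 to 4, with a lowest value of -0.078 in line 3. No library was a copy of another, with a chi-square per degree of freedom of at least 98.7 within groups. Total counts of 19649735 to 61981976 set the counting error, which is small for all members but SLC2A3, whose lowest count was 25. Alternatives were DESeq2's size factors, a filter of 10 counts in all libraries or none, DESeq2, no block, each line left out, all 16 libraries in 1 fit, other totals for CPM and shares without division by length.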

Additional observations from a re-analysis of the deposited data

Results flagged for a closer look

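The response of SLC2A3 to IL4 differed between the CREBBP and AAVS pools, by -4.23 on the log2 scale in the test of the difference itself (SE 0.32; edgeR adjusted p = 0.000173). This difference contains the AAVS IL4 libraries, where IGHM was at 119 to 1514 CPM and in no other library above 0.0823 CPM. The part of the transcripts that set these libraries apart was not tested. In the AAVS pools, IL4 and baseline differed in opposite directions in line 2 and in lines 1, 3 and 4 for 7 members, and this difference between lines was not tested. In line 2 the log2 differences were 1.59 for HK2, 0.45 for PFKP, 0.46 for ALDOA, 0.87 for PGK1, 0.45 for ENO1, 0.12 for PKM and 0.47 for LDHA, and all were negative in the other lines.

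Among 40 sets of 4 libraries (10 members in 4 groups), 3 held a library far from the rest by Dixon's criterion, where chance flags about 1 in 20 groups. PFKP of line 4 was low in AAVS baseline (95.1 CPM) and in CREBBP baseline (85.7 CPM), and PGK1 of line 2 was high in CREBBP IL4 (1223 CPM).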

How the results depend on the processing

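The call of SLC2A3 for IL4 in the AAVS pools held under all 10 alternatives. For CREBBP against AAVS with IL4, where 0 members were called, 1 was called with no filter, 1 with at least 10 counts in every library, 2 with DESeq2 and 2 in the fit of all 16 libraries, and between 0 and 1 when a line was left out, with 1 without line 2. For the difference in response, 0 members in place of 1 were called with no replicate block, and the block changed no other call of a member. Without the block NDRG1 was not called for IL4 in the AAVS pools (log2 fold change 3.94) or for the difference (-3.99).

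Uncalled values turned sign as follows, on the log2 scale. With no replicate block, ENO1 was at 0.0026 for IL4 in the CREBBP pools and SLC2A3 at 0.58 for CREBBP against AAVS at baseline. When a line was left out, IL4 in the AAVS pools gave -0.21 (without line 2) to 0.3996 for SLC2A1, and IL4 in the CREBBP pools gave -0.091 (without line 2) to 0.24 for PGK1 and -0.17 to 0.065 for ENO1 (0.0096 and 0.065 without lines 1 and 3). CREBBP against AAVS at baseline gave -1.63 to 0.23 (without line 4) for SLC2A3, -0.11 (without line 2) to 0.42 for HK2, -0.018 (without line 2) to 0.27 for ALDOA, -0.42 to 0.071 for PGK1 (0.071 and 0.0036 without lines 1 and 3) and 0.082 without line 3 for CREBBP. With IL4 it gave -0.021 (without line 3) to 0.32 for SLC2A1, and the difference in response gave -0.005 (without line 3) to 0.6034 for HK1 and -0.11 (without line 3) to 1.27 for HK2. The causes were not tested.

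Counts of all genes called moved more. They ranged from 25 to 2062 for IL4 in the AAVS pools (488 in the main test), from 0 to 40 for IL4 in the CREBBP pools (0), from 0 to 586 for CREBBP against AAVS at baseline (0), where the test without line 2 gave 515 and DESeq2 511, from 25 to 4393 with IL4 (859) and from 2 to 1191 for the difference in response (140). Of 80 alternative levels, 1 moved by more than 1 SD, HK1 in AAVS IL4, to 132 CPM with RN7SK, RN7SL1 and RN7SL2 left out of the total.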
